A study of Mus musculus with 12 samples.

Results

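*Ngfr*, the p75 neurotrophin receptor, was the transcript with the largest up-regulation among the DEGs of *Stella*-knockout female germline stem cells (FGSCs), and it was examined here with 5 further genes of neurotrophin signaling: the receptor tyrosine kinases *Ntrk2* and *Ntrk3*, the ligand *Bdnf*, the sorting co-receptor *Sort1* and the receptor-binding protein *Maged1*. The 6 genes were found by symbol among the RefSeq transcripts of the count table, where they take up 21 of 41388 rows and are 6 of 24809 named genes. They were selected on the fold changes and calls of these same contrasts, in which *Ngfr* was high in KO, so their counts, fold changes and standard errors are given as a description without p-values. The question was whether *Ngfr* changed alone among them in the 4 groups.

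RNA-seq was performed on 12 libraries of FGSCs from C57BL/6 mice, cultured beyond passage 20 on mitotically inactivated STO feeder cells, a mouse fibroblast line, with the growth factors LIF, EGF, bFGF and GDNF. The KO group was a *Stella* (*Dppa3*) knockout made with CRISPR/Cas9 and lentiviral guide RNAs, and the study describes it as 1 randomly chosen clone. The Over group carried a lentivirus expressing *Stella* and was selected with puromycin. KO-con was the control of the knockout and Over-con carried the empty lentiviral vector, and each group had 3 libraries. The study speaks of repeats without saying whether they were separate cultures, so p-values measure the spread between these libraries.

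Neurotrophins are small secreted growth factors best known for keeping neurons alive and shaping their connections. The mature ligands bind Trk receptor tyrosine kinases, which signal through adaptors to the Ras-MAP kinase, PI3-kinase and phospholipase C gamma pathways, whereas the uncleaved proneurotrophins bind p75 together with sortilin. p75 belongs to the tumor necrosis factor (TNF) receptor superfamily, carries a cytoplasmic death domain and has no kinase activity of its own. Outside the nervous system it is known as a surface marker of neural crest derivatives and of some mesenchymal cells.

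Library totals ranged from 5611846 to 12866545 counts, with a median of 10221419, and levels are given as CPM, counts relative to the library total after scaling over all 12 libraries. 3 counts, the least amount treated as a level, equal 0.233 to 0.527 CPM, and such floors cover counting error only. Genes listed with several transcripts received few reads in this table. Of 13102 genes with 1 coding transcript, 6632 (50.6%) reached a mean of 1 CPM as opposed to 1649 of 7540 genes (21.9%) with several, and 96.4% of the reads counted belonged to single-transcript genes. *Ngfr* and *Maged1* are listed with 1 transcript each, *Ntrk3* and *Sort1* with 2, *Ntrk2* with 3 and *Bdnf* with 12, so low values of the last 4 may understate them. *Stella* itself had 0 counts in all KO, KO-con and Over-con libraries and 347, 371 and 285 counts in Over, so its counts checked the Over label and could not tell KO from KO-con. Of 8 germ cell markers 3 reached a mean of 1 CPM over the 12 libraries: *Ifitm3*, *Sycp3* and, through the Over libraries alone, *Stella*. *Ddx4* was at 0, and *Dazl*, *Pou5f1* and *Stra8* had 1 count each in all libraries together. *Ddx4*, *Dazl* and *Pou5f1* are listed with 2 transcripts each, so these values may understate them too. The study detected RNA of these 3 genes in its FGSCs by RT-PCR, and the proteins of *Ddx4* and *Pou5f1* by immunofluorescence.

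*Ngfr* (NM_033217) lies on the minus strand of mm9 at chr11:95430132-95449049. The sequence ahead of the gene is shown because *Ngfr* is the member on which the comparison turns. RefSeq places a start from which the preceding 250 bases match chromosome 11 of mm9 once, and other chromosomes were not searched. That window was 70.4% GC with 16 CpG dinucleotides, a number reached by 25.4% of 32851 such windows of the RefSeq table (GRCm38.p6), whose median was 6. It held 4 GC boxes (GGGCGG on either strand), against at least 1 box in 32.7% and at least 4 in 4.09% of all windows. The last 37 bases lie inside the GENCODE gene model, and the 213 bases before it, at chr11:95449050-95449262 of mm9 on the minus strand, hold 3 of the boxes, in capitals, and 14 of the CpG dinucleotides.

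*Ngfr*, 5′ to 3′: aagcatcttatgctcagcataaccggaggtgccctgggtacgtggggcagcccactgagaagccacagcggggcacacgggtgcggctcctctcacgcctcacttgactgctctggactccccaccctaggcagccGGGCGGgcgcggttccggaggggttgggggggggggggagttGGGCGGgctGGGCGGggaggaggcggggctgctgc

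Among the windows of the other members, those of *Maged1* and *Ntrk2* had 14 and 19 CpG dinucleotides and 0 GC boxes, and the 7 windows of *Bdnf* had 1 to 13 CpG dinucleotides and 0 to 2 boxes. These letters are a description of the reference, and neither methylation nor binding was measured in these libraries.

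*Ngfr* was high in every KO library and low in every other library. The KO libraries had 182, 329 and 218 counts, or 20.8, 28.8 and 19.8 CPM. The KO-con libraries had 11, 9 and 8 counts, or 1.15, 0.798 and 0.965 CPM. The lowest KO library lay 17.2-fold above the highest of the other 9 libraries, so the groups were far from overlapping. Over-con had 10, 4 and 10 counts (1.02, 0.702 and 0.963 CPM), and Over had 12, 8 and 1 (1.11, 0.621 and 0.107 CPM). KO-con, Over-con and Over overlapped at about 1 CPM, and the 1 count in Over replicate 3 was under the 3-count floor.

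From high to low, the mean level of *Ngfr* was 23.1 ± 4.90 CPM (KO), 0.970 ± 0.174 (KO-con), 0.895 ± 0.170 (Over-con) and 0.613 ± 0.502 (Over; SD, n = 3). KO stood 23.8-fold above KO-con and 25.8-fold above Over-con. No fold is given against Over, whose replicate 3 was under the floor. The other 3 groups did not differ beyond their spread. All told, 729 counts of *Ngfr* were found in the 3 KO libraries and 73 in the 9 others. The log2 fold change of KO against KO-con was 4.58 (SE 0.24), rank 1 of the 78 up-regulated DEGs (0.825% of transcripts tested) and rank 3 by absolute log2 fold change of 9457 transcripts tested. Of these transcripts, 1.7% were DEGs (adjusted p under 0.05 and absolute log2 fold change over 1) and 11.8% had an adjusted p under 0.05. In bulk RNA, more cells carrying *Ngfr* and more *Ngfr* RNA per cell cannot be told apart. Since KO was 1 clone, the loss of *Stella* and other traits of that clone cannot be told apart either.

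With *Stella* overexpression no change of *Ngfr* was detectable at this depth. *Ngfr* was too low for the filter on low counts in Over against Over-con and in KO-con against Over-con. Without the filter its log2 fold change was -0.53 (SE 0.53) in Over and 0.07 (SE 0.50) between the controls. The difference between the KO effect and the Over effect was 5.12 (SE 0.63) on the log2 scale with all 12 libraries in 1 fit.

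**Figure D1:**
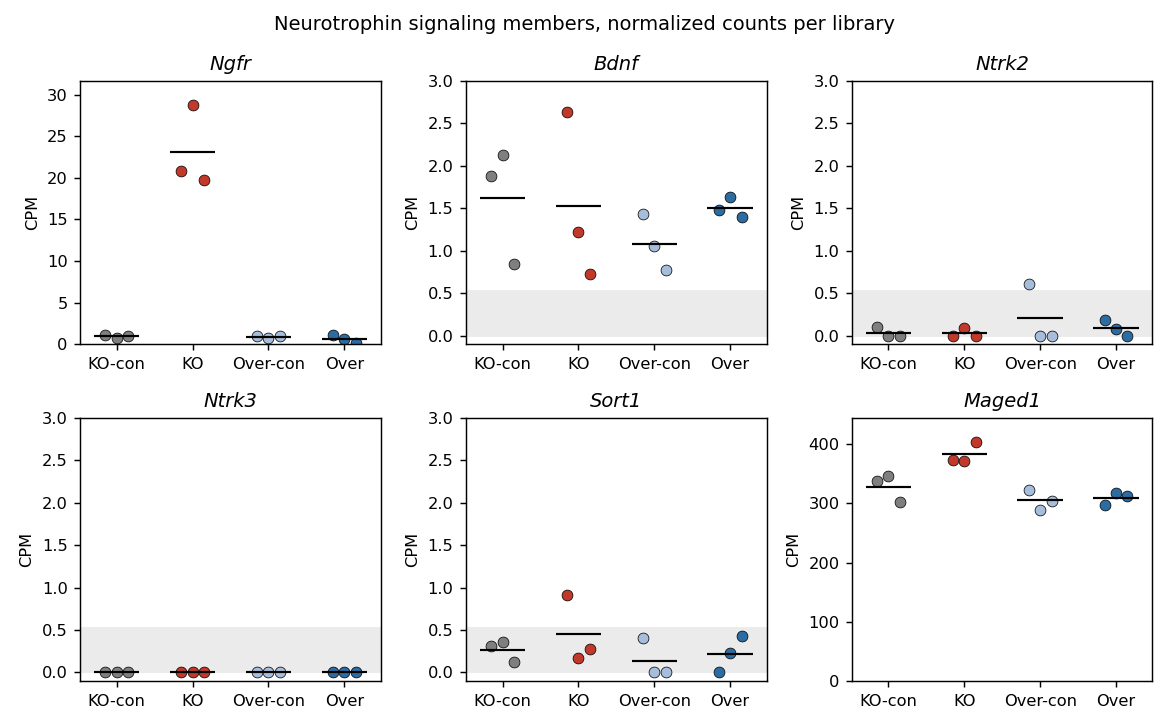
CPM of the 6 members in each library (points, replicates 1 to 3 from left to right) and the group means (lines), with all transcripts of a gene summed and separate vertical scales. Gray bands reach up to the largest 3-count floor (0.527 CPM). *Ngfr* sits at 19.8 to 28.8 CPM in KO and at or under 1.15 CPM elsewhere, *Ntrk3* is at 0 throughout, and *Maged1* lies between 288 and 404 CPM.

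None of the other members followed *Ngfr* in size. *Bdnf* encodes brain-derived neurotrophic factor, the main ligand of the *Ntrk2* kinase and, as its proform, a ligand of p75. Summed over its transcripts, *Bdnf* had 18, 24 and 7 counts in KO-con, 23, 14 and 8 in KO, 14, 6 and 8 in Over-con, and 16, 21 and 13 in Over. The 4 groups overlapped, with mean CPM of 1.62 ± 0.680 for KO-con, 1.53 ± 0.989 for KO, 1.08 ± 0.330 for Over-con and 1.5 ± 0.118 for Over (SD, n = 3). Without a filter on low counts, the log2 fold change of the summed counts was -0.17 (SE 0.37) in KO against KO-con, 0.48 (SE 0.40) in Over against Over-con and 0.61 (SE 0.41) in KO-con against Over-con.

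*Bdnf* transcripts differ in their 5′ exons and share the coding exon at the 3′ end, and 7 of the 12 listed had any count. NM_001048142 took 96 of the 172 counts. It had 13, 17 and 4 counts in KO-con, 15, 7 and 6 in KO, 3, 3 and 1 in Over-con, and 12, 10 and 5 in Over. All 3 Over-con libraries were thus at or under the floor for this transcript and all other libraries above it. Its log2 fold change was -0.33 (SE 0.51) in KO against KO-con, and in Over against Over-con, where the filter removed it, 1.53 (SE 0.67) without the filter. NM_001048141 had 37 counts in all and the other 5 between 4 and 13. The mean of the summed counts was also lowest in Over-con, but by less than for the most counted transcript. In KO-con against Over-con without the filter, the log2 fold change was 2.01 (SE 0.64) for that transcript and 0.61 (SE 0.41) for the sum.

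The Trk kinases were at or near 0. *Ntrk3*, the receptor of the ligand *Ntf3*, had 0 counts in all 12 libraries on both transcripts. *Ntrk2* had 11 counts in total on 1 of its 3 transcripts (NM_008745), 6 of them in Over-con replicate 1, 3 in Over, and 1 each in KO-con and KO. *Sort1*, which encodes sortilin, had 32 counts on 1 of 2 transcripts (NM_001271599): 3, 4 and 1 in KO-con, 8, 2 and 3 in KO, 4, 0 and 0 in Over-con, and 0, 3 and 4 in Over. A difference in these 3 genes was not detectable at this depth.

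*Maged1*, also called NRAGE, encodes a MAGE family protein that binds the cytoplasmic part of p75, and was the one other member with ample counts. It measured 373.5, 372.5 and 404.4 CPM in KO and 338.0, 345.7 and 301.8 in KO-con. It measured 297.8, 317.4 and 312.4 CPM in Over and 323.1, 288.4 and 304.2 in Over-con. All 3 KO libraries were above all 9 others, and Over and Over-con overlapped. Mean levels were 383 ± 18.1 CPM for KO, 328 ± 23.4 for KO-con, 309 ± 10.2 for Over and 305 ± 17.4 for Over-con (SD, n = 3). Its log2 fold change was 0.23 (SE 0.07) in KO against KO-con, 0.01 (SE 0.06) in Over against Over-con and 0.11 (SE 0.07) in KO-con against Over-con. KO and KO-con did not overlap in 30.1% of all transcripts tested.

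Of the 21 rows of the members, 3 passed the filter in KO against KO-con: *Ngfr*, by its KO counts, *Maged1* and 1 transcript of *Bdnf*. Only *Ngfr* was called, against a background of 11.8% of transcripts with an adjusted p under 0.05. *Ngfr* was chosen as a DEG of this comparison, so its call is no test. In Over against Over-con only *Maged1* was tested and was not called, against a background of 1.65% of transcripts with an adjusted p under 0.05. The same held in KO-con against Over-con, with a background of 16.3%. Since the choice of members used these contrasts, nothing more is read from these counts. The positions of the members in mm9 are chr13:58907957-59235331 (*Ntrk2*, plus strand), chr7:85337248-85723294 (*Ntrk3*, minus), chr2:109514857-109567204 (*Bdnf*, plus), chr3:108087009-108164429 (*Sort1*, plus) and chrX:91780813-91787482 (*Maged1*, minus), so the genes lie on 6 different chromosomes.

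The other ligands followed were also scarce. *Ntf3*, a ligand of *Ntrk3*, had 0 counts in all 12 libraries. *Ntf5*, the mouse gene of the fourth neurotrophin, was counted in every library, with 6 to 17 counts. Mean CPM was 1.17 ± 0.0977 for KO-con, 0.999 ± 0.312 for KO, 1.41 ± 0.369 for Over-con and 1.30 ± 0.525 for Over (SD, n = 3), and it did not pass the test in either contrast (edgeR adjusted p = 0.819 and 0.932).

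Among proteins that sit with p75 in the membrane, *Kidins220* and *Nradd* were well counted, *Rtn4r* and *Sorcs2* were low, and the other 4 of the 8 listed genes were at or near 0. *Kidins220*, a scaffold of Trk and p75 receptors, had means of 750 ± 21.6 CPM in KO against 762 ± 28.5 in KO-con (SD, n = 3; adjusted p = 0.902). *Nradd*, a death-domain protein related to p75, had 17.9 ± 2.88 CPM in KO against 15.6 ± 0.915 in KO-con (adjusted p = 0.418). Neither stood out in Over against Over-con either, with log2 fold changes of 0.01 and 0.03. *Sorcs2*, a relative of sortilin that binds proneurotrophins with p75, lay between 2.56 and 3.25 CPM in the 4 group means. *Sorcs1*, *Sorcs3* and *Sorl1* had 22, 2 and 1 counts, and *Lingo1*, a partner of p75 in the Nogo receptor complex, had 0.

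*Rtn4r*, the Nogo receptor that binds p75 on neurons, rose in Over. It measured 5.28, 5.28 and 4.19 CPM in Over against 1.63, 2.46 and 2.70 in Over-con, 1.77, 1.60 and 2.05 in KO-con and 2.40, 2.71 and 3.54 in KO. Over lay above all other libraries, and Over and Over-con did not overlap in 19.1% of all transcripts tested. The log2 fold change of Over against Over-con was 1.13 (SE 0.25, edgeR adjusted p = 0.0351), which made *Rtn4r* 1 of 16 DEGs of that comparison (0.17% of those tested). In KO against KO-con it was 0.70 (SE 0.29, adjusted p = 0.144), and the 2 effects were not shown to differ (-0.43, SE 0.37, adjusted p = 0.563). The call in Over was lost when any library other than Over-con replicate 3 was left out, with an adjusted p of 0.0738 to 0.193. The call was also lost in edgeR with the replicate number as a block (adjusted p = 0.105). DESeq2 gave *Rtn4r* no adjusted p in this comparison, so it did not test the call.

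The wider pathway was followed in 7 lists with 107 genes besides the members, 95 of them with counts. In KO against KO-con, 63 transcripts of 60 genes were tested, of which 7 rose, 2 fell and 54 did not pass (14.3%, against 11.8% of all transcripts, 5.83% higher and 5.96% lower), with a median log2 fold change of 0.04 against 0.01 over all transcripts. In Over against Over-con, 64 transcripts of 61 genes were tested, of which 2 rose and 1 fell (4.69%, against 1.65% of all, 0.766% higher and 0.883% lower), with a median of -0.04 against 0.00. All changes in KO were under a log2 value of 1, so the lists held no DEG of that comparison. Between the controls KO-con and Over-con, 2 of 64 were higher and 3 lower (7.81%, against 16.3% of all, 8.08% higher and 8.19% lower). The KO effect differed from the Over effect in 7 of 66 (5 higher and 2 lower), against 8.64% of all transcripts, 4.12% higher and 4.52% lower.

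**Figure D2:**
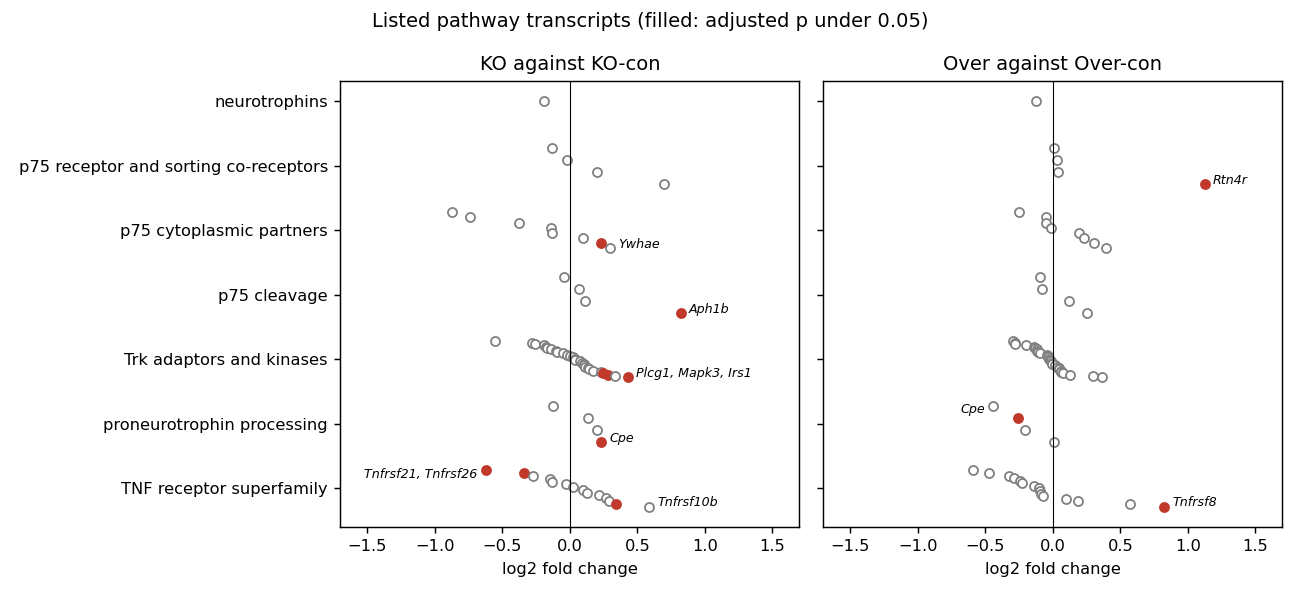
Log2 fold change (horizontal axis) of each tested transcript of the 7 lists (rows), members left out, in KO against KO-con and in Over against Over-con. Red points had an edgeR adjusted p under 0.05 and their symbols are given from the smaller to the larger value. In KO the values run from -0.87 to 0.82, against 4.58 for *Ngfr*.

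p75 is cut by ADAM metalloproteases and then by gamma-secretase. Of 7 genes of this machinery 4 were tested, and 1 rose in KO. *Aph1b*, a subunit of gamma-secretase, measured 24.3, 21.4 and 24.1 CPM in KO and 13.3, 12.2 and 14.1 in KO-con. KO was above all other libraries, which reached 17.6 CPM in Over. This was a log2 fold change of 0.82 (SE 0.12, edgeR adjusted p = 0.000434). The KO effect differed from the Over effect by 0.57 (adjusted p = 0.0391), which did not pass in DESeq2 (adjusted p = 0.0620). The other 3 did not pass. *Ncstn*, the nicastrin subunit, had a log2 fold change of 0.07 (adjusted p = 0.611), *Aph1a*, another subunit, -0.04 (0.890), and the protease *Adam10* 0.11 (0.346).

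Of 15 listed cytoplasmic partners of p75 besides *Maged1*, 8 were tested and 1 rose in KO. *Ywhae*, which encodes the adaptor 14-3-3 epsilon, had 1049 ± 35.7 CPM in KO against 896 ± 35.5 in KO-con (SD, n = 3; log2 fold change 0.23, SE 0.07, edgeR adjusted p = 0.0371). *Traf6* and *Sqstm1*, the ubiquitin ligase and the scaffold that link p75 to NF-kappa B, had log2 fold changes of -0.87 (SE 0.32) and -0.74 (SE 0.25) in KO but did not pass (adjusted p = 0.0925 and 0.0697). Both are listed with 2 transcripts and stayed under 5 CPM. *Myd88*, an adaptor for IRAK and TRAF6, was at 73.6 ± 3.64 CPM in KO against 81.2 ± 1.43 in KO-con (adjusted p = 0.289).

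Of 39 genes for adaptors and kinases that act downstream of Trk receptors, 37 had counts. Of 28 transcripts tested in KO against KO-con, 3 rose and none fell. *Irs1*, an adaptor of insulin and Trk signaling, measured 41.9, 43.6 and 37.5 CPM in KO and 33.2, 28.7 and 29.6 in KO-con (log2 fold change 0.43, SE 0.10, edgeR adjusted p = 0.00987). It was higher still in Over-con, at 46.8, 47.2 and 45.6 CPM, so that against Over-con its direction in KO turned to -0.19. *Plcg1*, which encodes phospholipase C gamma, and *Mapk3*, which encodes the kinase ERK1, rose by 0.25 and 0.28 (adjusted p = 0.0265 and 0.0283). Between the controls, both *Irs1* (-0.61, adjusted p = 0.000136) and *Mapk3* (-0.24, adjusted p = 0.0351) were lower in KO-con than in Over-con, *Mapk3* not without KO-con replicate 2 or 3 or Over-con replicate 1 or 2 (0.0522 to 0.175). In Over against Over-con none of the 28 tested passed.

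Of 9 genes that cut or process proneurotrophins 4 were tested, and 1 rose in KO. *Plat*, which encodes tissue plasminogen activator, had a log2 fold change of 0.20 in KO against KO-con (SE 0.11, edgeR adjusted p = 0.298). *Cpe*, carboxypeptidase E, which sorts proBDNF into secretory granules, rose in KO (0.23, adjusted p = 0.0330) and fell in Over (-0.26, adjusted p = 0.0336), and these effects differed by 0.49 (adjusted p = 0.000535). Neither passed against the other control group. *Cpe* had 0.06 in KO against Over-con (adjusted p = 0.759) and -0.09 in Over against KO-con (adjusted p = 0.193).

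Within the TNF receptor superfamily, to which p75 belongs, no other gene came near *Ngfr*. Of 14 transcripts tested in KO against KO-con 1 rose and 2 fell. *Tnfrsf10b*, a TRAIL death receptor, rose by 0.34 (SE 0.08, edgeR adjusted p = 0.0111). *Tnfrsf21*, the death receptor DR6, measured 106.7, 109.7 and 104.9 CPM in KO and 192.2, 146.6 and 159.1 in KO-con (log2 fold change -0.63, SE 0.09, adjusted p = 0.000201). Its levels in Over-con, 96.8 to 108.1 CPM, overlapped those of KO, and KO-con stood above Over-con by 0.68 (adjusted p = 1.66e-05). *Tnfrsf26* showed the same order, with -0.34 in KO (adjusted p = 0.0396) and 0.54 between the controls (adjusted p = 0.000218). *Fas* was lower in KO-con than in Over-con (-0.50, adjusted p = 0.00353) and did not pass in KO (0.10, adjusted p = 0.672). In Over, *Tnfrsf8* (CD30) rose from 5.17 ± 1.16 to 9.44 ± 1.29 CPM (SD, n = 3; log2 fold change 0.82, SE 0.19, adjusted p = 0.0393).

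With Over-con in place of KO-con, 1 of the 9 pathway calls in KO was made, *Aph1b* (log2 fold change 0.66, adjusted p = 0.00770), and *Ngfr* had 4.62. *Plcg1* had 0.23 (adjusted p = 0.113) against Over-con, near its 0.25 against KO-con, and the 7 other calls had -0.19 to 0.19. With each of the 6 libraries left out in turn, *Aph1b* and *Tnfrsf21* passed every time. *Irs1* did not pass without KO-con replicate 2 (adjusted p = 0.0605) or KO replicate 2 (0.0575), nor *Tnfrsf10b* without KO-con replicate 3 (0.0543) or KO replicate 2 (0.0657). *Tnfrsf26* did not pass without KO-con replicate 1 (0.198), KO-con replicate 2 (0.129) or KO replicate 2 (0.196). *Mapk3* passed without KO-con replicate 1 or KO replicate 1, and *Ywhae*, *Plcg1* and *Cpe* without KO replicate 1 only, with adjusted p of 0.0584 to 0.144 otherwise. In Over, *Cpe* and *Tnfrsf8* passed without Over-con replicate 3 only, with adjusted p of 0.0831 to 0.226 otherwise.

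Of the 4 nearest genes on each side of *Ngfr* in the RefSeq table, 5 were tested in KO against KO-con and none passed. *Phb*, which encodes the mitochondrial protein prohibitin and starts 79.2 kb away, was at 147 ± 16.8 CPM in KO against 146 ± 7.65 in KO-con (SD, n = 3; log2 fold change 0.01, edgeR adjusted p = 0.944). *Spop*, a ubiquitin ligase adaptor 173.7 kb to the other side, had -0.49 (SE 0.26, adjusted p = 0.261), and *Fam117a*, 250.7 kb away, had 0.26 (SE 0.13, adjusted p = 0.230). The noncoding *B130006D01Rik* and *Zfp652os* had 0.02 (adjusted p = 0.974) and 0.96 (SE 0.42, adjusted p = 0.157), the latter on 99 counts in all. The nearest gene, *Nxph3*, had 44 counts over the 12 libraries, and *Slc35b1*, listed with 2 transcripts, had 59, and neither was tested. The noncoding *Gm29873* was not analysed here.

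**Figure D3:**
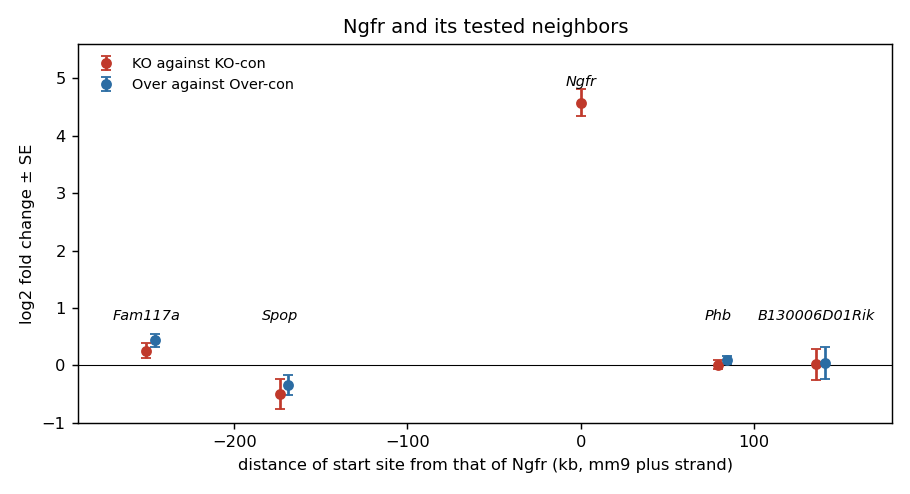
Log2 fold change ± SE of *Ngfr* and its tested neighbors (vertical axis) against the distance of their start sites from that of *Ngfr* in kb, in KO against KO-con (red) and Over against Over-con (blue, shifted by 5 kb for legibility). *Ngfr* is at 4.58 in KO and was not tested in Over, and the 4 neighbors with a known mm9 position lie between -0.49 and 0.44.

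To see which transcripts followed *Ngfr* most closely, their log2 CPM over the 12 libraries was correlated with that of *Ngfr*. The 12 points share 4 groups, and since KO alone is high in *Ngfr*, a high correlation chiefly means that KO stands apart, so it is a description. Of 6719 transcripts with a mean of at least 5 CPM, 18 had Pearson's r over 0.9 and 18 had r under -0.9. Closest was *Gm14137* (r = 0.975), at 20.6 ± 1.33 CPM in KO and 6.25 to 7.23 in the other 3 group means. Next were *Serpinb9b*, a serine protease inhibitor (0.952), *Ccdc88b* (0.946), the calpain *Capn6* (0.945) and *Tnc* (0.942). *Tnc*, which encodes the matrix glycoprotein tenascin C, had mean CPM of 892 ± 65.2 for KO, 432 ± 51.7 for KO-con, 452 ± 44.4 for Over-con and 323 ± 10.4 for Over (SD, n = 3). Their spans differed from that of *Ngfr*, with KO means of *Ccdc88b* and *Capn6* at 298 and 120 CPM against 222 and 92.4 in KO-con. Most opposed were the receptor *Kir3dl1* (-0.970), the noncoding *C920009B18Rik* (-0.949) and *Pdcd1lg2*, the ligand PD-L2 (-0.938), whose mean was 8.48 ± 0.582 CPM in KO against 23.7 ± 3.39 in KO-con.

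**Figure D4:**
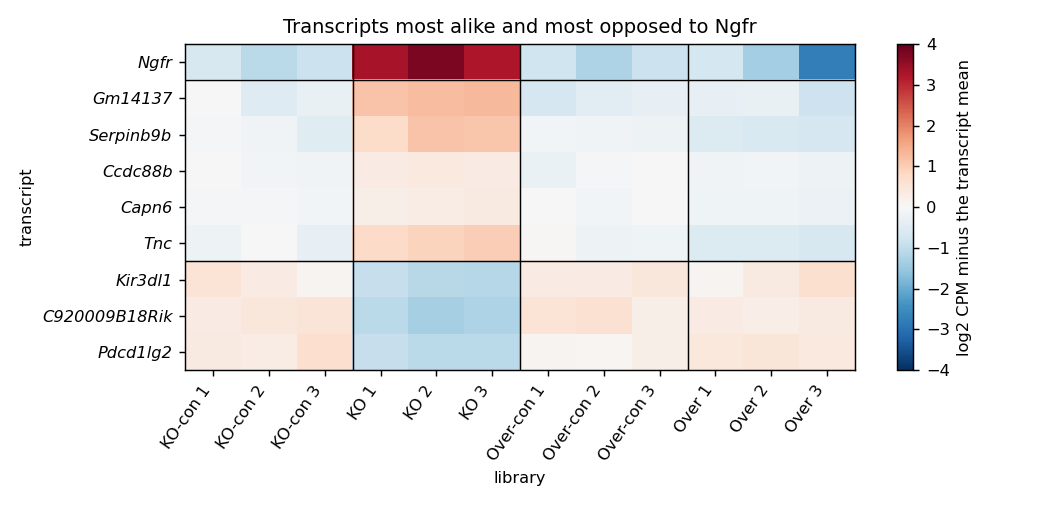
Log2 CPM minus the mean of each transcript (color, from -4 to 4) in the 12 libraries (columns) for *Ngfr*, the 5 transcripts most alike and the 3 most opposed to it (rows). The KO columns stand apart in every row, by more for *Ngfr* than for the others.

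Marker lists of cell types in which p75 is known, or which the culture could hold, were read beside *Ngfr*. Among the markers at 0 in these lists, *Rbfox3*, *Snap25*, *Pdgfrb*, *Ms4a2*, *Adgre1*, *Itgam* and *Cyp19a1* are listed with several transcripts. Such values may understate them. Of 7 neural crest and Schwann cell markers 1 reached a mean of 1 CPM (*Erbb3*), with *Foxd3* at 0, and the summed level was 1.91 to 2.86 CPM in KO, 1.56 to 2.57 in KO-con, 1.94 to 3.16 in Over-con and 2.09 to 3.33 in Over. Of 6 neuronal markers 2 did so, with *Rbfox3* and *Snap25* at 0, and the sums were 11.7 to 15.6 CPM in KO and 9.05 to 12.2 in KO-con. Of 9 fibroblast markers 6 did so, with *Pdgfrb* at 0, and KO (867 to 1257 CPM) and KO-con (977 to 1162) overlapped, both below Over-con (1382 to 1562). The summed levels of these 3 lists overlapped between KO and KO-con. Within the fibroblast list, 1 transcript of *Pdgfra* (NM_001347719; log2 fold change -1.56, edgeR adjusted p = 0.00998) and 1 of *Dcn*, which encodes the matrix proteoglycan decorin (NM_001190451; -0.41, adjusted p = 0.0224), fell in KO.

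Of 10 mast cell markers 5 reached a mean of 1 CPM, with *Fcer1a* and *Ms4a2* at 0, and the sums were 1159 to 1233 CPM in KO, 370 to 436 in KO-con, 757 to 863 in Over-con and 651 to 674 in Over. Nearly all of it was *Cpa3*, a mast cell carboxypeptidase, at 1170 ± 38.3 CPM in KO against 401 ± 36.2 in KO-con (SD, n = 3; log2 fold change 1.55, edgeR adjusted p = 2.62e-09). *Hdc*, which encodes histidine decarboxylase, and *Cma1*, a mast cell chymase, also rose (log2 fold change 1.30 and 1.79, adjusted p = 0.0267 and 0.00834), while *Mcpt8* had 0.71 (adjusted p = 0.0896) and the transcription factor gene *Gata2* -0.34 (adjusted p = 0.551). Unlike *Ngfr*, *Cpa3* was higher in Over-con (802 ± 57.2 CPM) than in KO-con. *Cpa3* also fell in Over against Over-con (log2 fold change -0.30, adjusted p = 0.0247). Of 7 follicular dendritic and stromal cell markers 4 reached 1 CPM, with *Cxcl13* at 0, and the sums were 51.1 to 67.6 CPM in KO, 36.7 to 44.0 in KO-con, 51.7 to 60 in Over-con and 47.6 to 49.1 in Over. Most of it was the chemokine gene *Cxcl12*, which rose in KO (NM_021704; log2 fold change 0.52, adjusted p = 0.0149). This transcript was lower in KO-con than in Over-con (-0.58, adjusted p = 0.00075), and its means in KO and Over-con were 42.4 and 44.7 CPM. The other counted transcript of *Cxcl12*, NM_001012477, did not pass in KO (-0.15, adjusted p = 0.771). The macrophage list (4 of 8, with *Adgre1*, *Itgam* and *C1qa* at 0) summed to 44.2 to 53.0 CPM in KO and 36.9 to 45.2 in KO-con, and to 51.6 to 54.3 in Over and 40.0 to 45.3 in Over-con. Its member *Cd68*, a lysosomal glycoprotein of macrophages, rose both in KO (log2 fold change 0.48, adjusted p = 0.0158) and in Over (0.51, adjusted p = 0.00645). The other macrophage markers tested did not pass. In KO, *Cd14* had -0.48 (adjusted p = 0.187), *Mpeg1* -0.67 (0.162) and *Csf1r* 0.66 (0.304). In Over, *Cd14* had -0.20 (0.742) and *Mpeg1* -0.40 (0.623). The granulosa cell list (2 of 6, with *Foxl2*, *Fshr* and *Cyp19a1* at 0) summed to 29.5 to 31.2 CPM in KO and 25.3 to 29.2 in KO-con. Most of it was *Inhba*, an activin subunit gene, which did not pass the test (0.19, adjusted p = 0.291), and *Amh* had -0.76 (adjusted p = 0.302). The germ cell list summed to 79.3 to 121 CPM in KO and 116 to 139 in KO-con, most of it *Ifitm3*. Its member *Prdm1* fell in KO, to 0.313 ± 0.110 CPM from 1.84 ± 0.147 in KO-con (log2 fold change -2.48, adjusted p = 0.00147). Between the controls, *Prdm1* was higher in KO-con than in Over-con (1.40, adjusted p = 0.0175). *Ifitm3* (-0.33, adjusted p = 0.110) and *Sycp3* (-0.09, adjusted p = 0.922) did not pass in KO. *Ifitm3* fell in Over against Over-con (-0.31, adjusted p = 0.0396) and was lower in KO-con than in Over-con (-0.36, adjusted p = 0.0059). The part of these cell types in the *Ngfr* result was not tested.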

How the data were processed

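The authors trimmed the reads of 12 stranded mRNA libraries, aligned them to mm9 with HISAT2 and deposited raw counts per RefSeq transcript; the strand setting, the annotation release and the treatment of reads shared between transcripts are not given in the sources used here. Groups and replicate numbers came from the sample titles. Symbols for 41181 of 41388 transcripts (99.5%) were read from RefSeq (GRCm38.p6), positions from GENCODE vM1 on mm9, and promoter sequences from RefSeq. Members and gene lists were chosen with earlier results of these data known. A few genes of the lists are not reported here and were left out of all list counts.

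Counts were tested with edgeR 4.0.16 (TMM, filterByExpr, glmQLFit, glmQLFTest; R 4.3.3) for each manipulated line against its own control and for KO-con against Over-con, and in a 12-library fit for the difference between effects, with Benjamini-Hochberg adjustment over all 9457, 9401, 9321 and 9903 transcripts tested. Levels are CPM with TMM factors over the 12 libraries, whose totals were 5611846 to 12866545 counts. Within groups, pairs of libraries differed by more than counting noise (chi-square per degree of freedom 2.02 to 14.0), so none was counted as a duplicate. Named were the members, the ligands and co-receptors kept in the lists, at most 4 transcripts per other list and comparison with the lowest adjusted p under 0.05, the 5 transcripts most alike and 3 most opposed to *Ngfr* in log2 CPM (prior count 2), and its 4 nearest genes on each side; others named as not passing were picked after their values were seen. The steps were tested on simulated data. Alternatives were DESeq2 1.42.0, other scalings and filters, counts summed per gene, 1 fit of all libraries, the replicate number as a block, the other control group and each library left out. Figures were drawn with matplotlib 3.10.9.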

Additional observations from a re-analysis of the deposited data

Results flagged for a closer look

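The KO effect and the Over effect on the log2 scale differed by the test of the difference itself (edgeR, 12 libraries in 1 fit, adjusted p under 0.05) for 7 of the 66 pathway transcripts tested, against 8.64% of all transcripts. The KO effect exceeded the Over effect for *Irs1* by 0.71, *Tnfrsf10b* by 0.63, *Aph1b* by 0.57, *Cpe* by 0.49 and *Mapk3* by 0.39. It was the smaller one for *Tnfrsf21* (-0.73) and *Tnfrsf26* (-0.53). For *Irs1*, *Tnfrsf21*, *Tnfrsf26* and *Mapk3* the 2 control groups also differed from each other (-0.61, 0.68, 0.54 and -0.24), in the direction opposite to the KO effect in each. *Cpe* passed neither in KO against Over-con (0.06) nor in Over against KO-con (-0.09). With each of the 12 libraries left out, *Irs1*, *Cpe*, *Tnfrsf10b* and *Tnfrsf21* passed every time. *Tnfrsf26* did not pass without KO-con replicate 1 (adjusted p = 0.0626). *Mapk3* did not without KO-con replicate 2, Over-con replicate 1 or Over replicate 1 or 3 (0.0540 to 0.0683). *Aph1b* passed only without KO-con replicate 3, KO replicate 2 or Over-con replicate 1 or 3 (0.0681 to 0.125 otherwise). With 3 libraries a group, no test for a library far from its group was made.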

How the results depend on the processing

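The log2 fold change of *Ngfr* in KO against KO-con stayed between 4.39 and 4.71 with each library left out and between 4.57 and 4.62 under the other alternatives, except the filter of at least 10 counts in every library, which removed *Ngfr*. In Over against Over-con and between the controls, *Ngfr* had no value under the usual filter. The count of pathway transcripts past the test was 9 in KO, where it became 1 with Over-con in place of KO-con and 2 to 12 with a library left out, and 3 in Over, where it became 9 with KO-con in place of Over-con and 0 to 8 with a library left out. Between the controls it was 5 (4 to 11 with a library left out) and for the difference between effects 7 (5 to 11). With Over-con in place of KO-con, 3 genes changed sign, *Irs1* (-0.19), *Tnfrsf21* (0.044) and *Tnfrsf26* (0.19); the cause was not tested. Without Over-con replicate 3 the calls over all transcripts in Over rose from 155 to 719. With library totals in place of TMM, 700 of 1148 calls in KO were higher in place of 551 of 1115, and 543 of 1529 between the controls in place of 753 of 1516.

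With the replicate number as a block, the pathway counts were 4 in KO, 0 in Over, 7 between the controls and 6 for the difference. Same-numbered libraries shared no deviation (correlations -0.16 to 0.04, and not every library correlated best with its own number), so the numbers were not taken as pairs.

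*Ntrk2*, *Ntrk3* and *Sort1* had 11, 0 and 32 counts over the 12 libraries, and differences between groups were not detectable at this depth.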
